A study of Mus musculus with 12 samples.

Results

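Krüppel-associated box (KRAB) zinc finger genes were followed in mouse bone marrow-derived mast cells (BMMCs), which are mast cells grown in culture from bone marrow. The genes were chosen by annotation: their symbol starts with Zfp, the pathway column of the count table lists the KEGG entry "Herpes simplex virus 1 infection", under which KEGG places KRAB zinc finger genes, and their mean raw count over the 12 libraries was 20 or more. Of 16234 genes in the table, 380 carry a Zfp symbol, 200 of these carry the KEGG entry, and 159 reached the count minimum. The remaining 41 annotated Zfp genes lay below it. *Zfp658*, with a mean count of 19.3, was nearest below the minimum, and *Zfp558*, with 22.0, was nearest above. All 159 members passed the filter on low counts and were tested.

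KRAB zinc finger proteins are the largest family of transcription factors in mammals and bind DNA through arrays of C2H2 zinc fingers. Their KRAB box recruits the co-repressor TRIM28 (KAP1), which brings the histone methyltransferase SETDB1 and heterochromatin proteins to the bound site. The family is best known for silencing transposable elements and for keeping imprints, and its genes lie in tandem clusters.

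Cells came from mice with both *Elk4* alleles (wild type, WT), with 1 allele (heterozygous, HZ) or with none (knockout, KO), according to the labels, and were sequenced with and without stimulation, with 2 libraries in each of the 6 groups. The mice were conventional *Elk4* knockouts on a C57BL/6N background, 6 to 12 weeks old and of both sexes, with WT littermates as controls, and all cultures received IL-3 and SCF at 10 ng/ml each for 4 to 8 weeks, after which more than 80% of cells carried both CD117 and FcεRI. Stimulated cells were loaded overnight with 0.5 µg/ml anti-DNP IgE and then exposed to DNP-HSA at 100 ng/ml for 1 h. The labels call the other cells untreated and do not say whether these had received IgE. The labels do not say what separates replicate 1 from replicate 2, so p-values measure the spread between these libraries, which may be technical. ELK4 is an ETS-family transcription factor that acts with SRF.

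Each library held 29697958 to 35531667 counts on genes. The scaled level of *Elk4* (CPM, counts relative to the TMM-scaled library size) was 73.2 and 78.3 in unstimulated WT, 93.2 and 86.0 in unstimulated HZ and 69.7 and 63.5 in unstimulated KO. After stimulation the WT libraries had 78.2 and 67.0 CPM, those of HZ 65.2 and 63.7 CPM and those of KO 67.1 and 68.5 CPM, so *Elk4* RNA did not follow the labels, and which part of the gene was deleted is not given in the sources used here. The study checked the genotypes by western blot of ELK4 protein. *Hdc*, the histamine-forming enzyme and 1 of the mast cell markers, had 131 and 122 CPM in unstimulated WT, 114 and 104 CPM in HZ and 16.9 and 17.1 CPM in KO, so the KO libraries stood apart by another gene. HZ and KO stand for the libraries labelled so throughout. The 7 immediate-early genes listed as a check of stimulation rose in all 3 genotypes, from a summed level of 510 to 1832 CPM to 20374 to 21419 CPM. Of 12 mast cell markers 11 were in the table, with a summed level of 46884 to 57579 CPM. The 8 macrophage markers summed to 35.9 to 70.3 CPM and the 3 megakaryocyte markers to 1511 to 2421 CPM, nearly all of it *Itga2b*, with *Pf4* at most at 0.144 CPM and *Gp9* at 1.07 CPM. The 3 basophil markers summed to 465 to 674 CPM, nearly all of it *Cd200r3* at 454 to 667 CPM, with *Mcpt8* and *Prss34* far lower. The dendritic cell markers summed to at most 7.57 CPM, and the neutrophil, T cell, B cell and erythroid markers to at most 0.604 CPM.

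Members were expressed at low levels. Their mean raw count ran from 22.0 to 4294 with a median of 196, against a median of 830 over all 12208 genes tested. On the FPKM scale, which corrects for gene length, the median member had a mean level of 1.22, 67 members lay under 1 FPKM and 14 over 5 FPKM. The 5 highest were *Zfp869* at 12.3, *Zfp871* at 12.1, *Zfp954* at 10.4, *Zfp984* at 9.56 and *Zfp715* at 8.81 FPKM. These 5 genes did not share a response: *Zfp871* and *Zfp869* fell on stimulation in WT (log2 fold change -0.72 ± 0.05 and -0.36 ± 0.07, SE), *Zfp954* and *Zfp715* rose (0.96 ± 0.10 and 1.31 ± 0.07), and *Zfp984* had 0.02 ± 0.06 (adjusted p = 0.867). Of the 75-base windows of the *Zfp984* transcript, 41.6% also occur in other genes, so its counts depend on how shared reads were assigned.

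After 1 h of stimulation the members took a smaller share of the RNA. They took 0.192 to 0.222% of all counts on genes in the 6 unstimulated libraries and 0.111 to 0.116% in the 6 stimulated libraries, with no overlap. Their median level was 7.29 to 8.12 CPM in unstimulated and 3.42 to 3.89 CPM in stimulated libraries. Their summed level was 1718 and 1768 CPM in unstimulated WT against 1265 and 1230 CPM in stimulated WT. In HZ it was 2055 and 2003 against 1225 and 1228 CPM, and in KO 1785 and 1750 against 1279 and 1283 CPM. In bulk RNA, fewer cells of a type and less RNA per cell cannot be told apart.

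**Figure D1:**
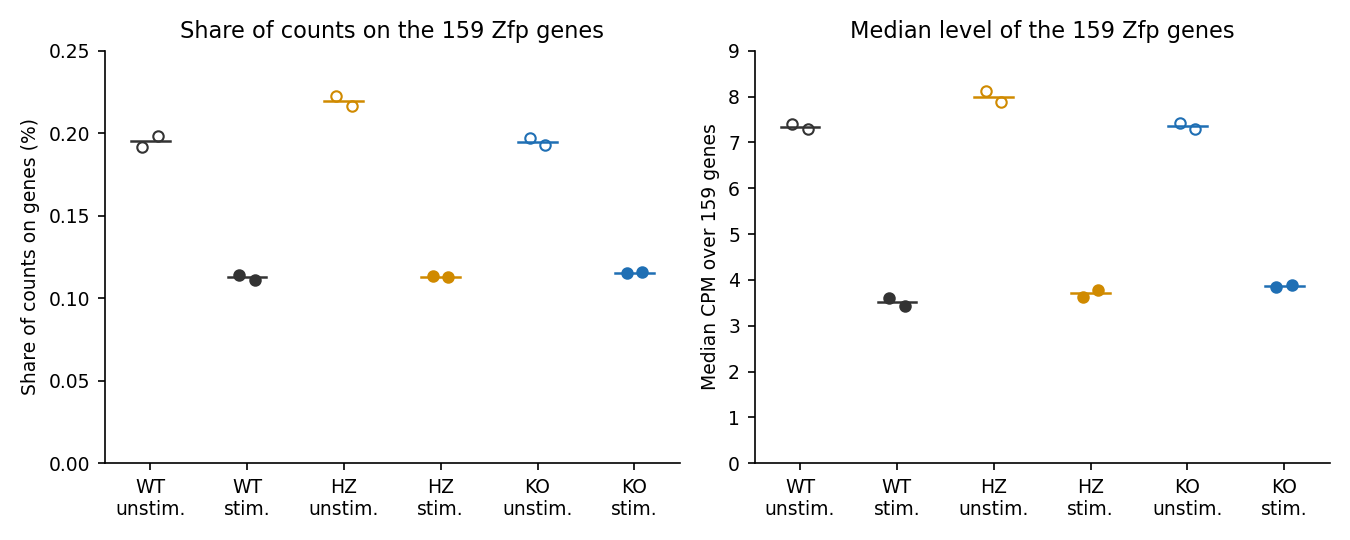
Share of all counts on genes taken by the 159 members (left, percent) and their median level (right, CPM) in each library, by genotype, with lines at the means of 2 libraries. Unstimulated libraries (open points) lie between 0.192 and 0.222%, stimulated libraries (filled points) between 0.111 and 0.116%.

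The first comparison asks what FcεRI-mediated stimulation did in WT cells. Of the 159 members 69 (43.4%) fell at least 2-fold at an adjusted p below 0.05 (edgeR quasi-likelihood test, Benjamini-Hochberg), where 3.06% of all genes tested did so. Only 5 members (3.14%) rose at least 2-fold, near the 3.71% of all genes: *Zfp57*, *Zfp948*, *Zfp715*, *Zfp251* and *Zfp772*. Without the fold threshold 117 members were lower and 6 higher, against 22.9% and 22.4% of all genes. The median log2 fold change of members was -0.92 and that of all genes tested -0.01, and 144 of 159 members lay below 0. Of the 81 genes that fell at least 4-fold among all genes, 15 were members.

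In HZ cells 76 members (47.8%) fell and 6 rose at least 2-fold, against 7.28% and 7.02% of all genes. In KO cells 63 members (39.6%) fell and 4 rose, against 2.88% and 3.73%. By adjusted p alone, 120 members were lower and 11 higher in HZ (all genes 31.6% and 32.9%), and 100 were lower and 9 higher in KO (20.5% and 20.4%). Medians were -0.94 in HZ and -0.80 in KO, where all genes had -0.00 and -0.01. At least 4-fold falls were seen for 26 members in HZ and 17 in KO, out of 236 and 87 genes. A fall of at least 2-fold was called in all 3 genotypes for 47 members (1.57% of all genes), and a rise for 4, *Zfp251*, *Zfp57*, *Zfp772* and *Zfp948* (2.59% of all genes). Calls in a single genotype were 8 in WT, 11 in HZ and 4 in KO.

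All 6 stimulated libraries lay below all 6 unstimulated libraries for 99 members, which 11.9% of all genes did. They lay above for 7 members, *Zfp57*, *Zfp948*, *Zfp715*, *Zfp251*, *Zfp772*, *Zfp940* and *Zfp954*, against 10.6% of all genes. *Zfp940* was named after its values were seen. Across the 159 members the responses of the genotypes, which share no library, had Pearson's r of 0.865 (WT and HZ), 0.889 (WT and KO) and 0.848 (HZ and KO), with Spearman's rho of 0.786, 0.847 and 0.785. Genes are not independent replicates, and these values are descriptions.

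**Figure D2:**
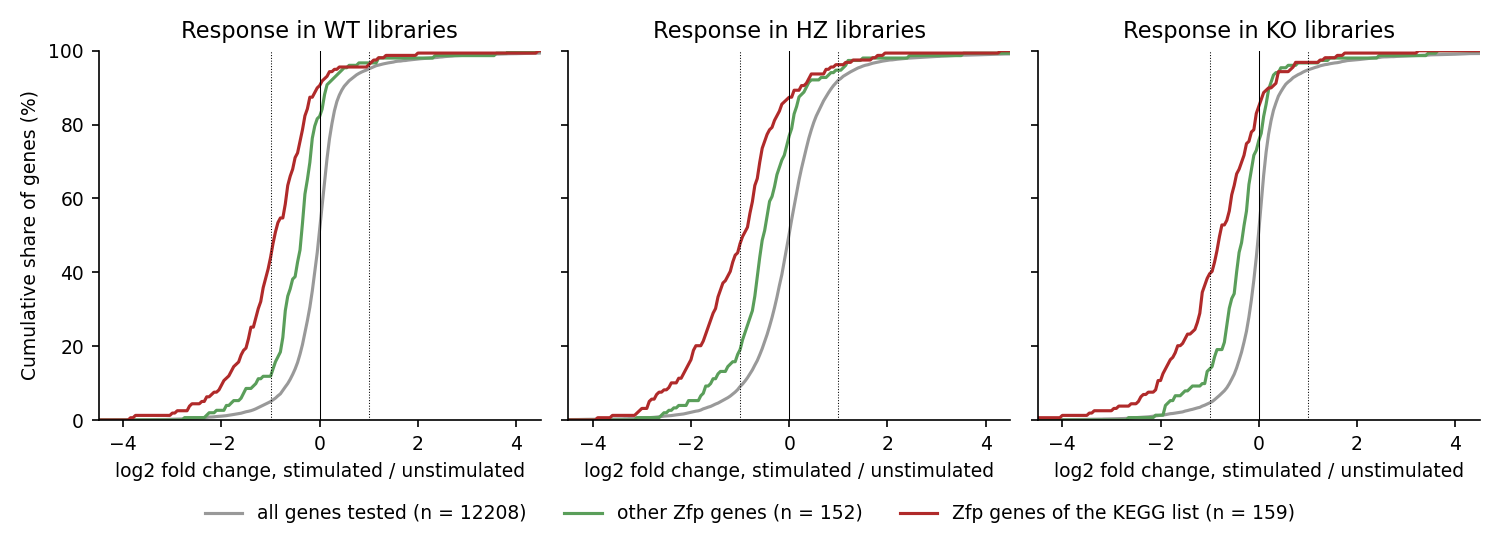
Cumulative share of genes (percent) by log2 fold change on stimulation in WT, HZ and KO libraries, for the 159 members, the 152 other Zfp genes and all 12208 genes tested, with dotted lines at 2-fold changes. The members' curve lies to the left of the curve of all genes, with medians of -0.92, -0.94 and -0.80.

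Zfp genes outside the KEGG entry and other genes of the entry were read beside the members, with no test between the lists. The 152 other Zfp genes with a mean count of 20 or more had median log2 fold changes of -0.37 in WT, -0.53 in HZ and -0.33 in KO, and 18, 29 and 21 of them fell at least 2-fold. The 165 other genes of the KEGG entry had medians of -0.04, -0.12 and -0.04, and 12, 20 and 11 of them fell. Scaling by library totals in place of TMM shifted the median of all genes by -0.31 in WT, -0.23 in HZ and -0.29 in KO. Relative to the median of all genes the members' median was -0.91 in WT, -0.93 in HZ and -0.79 in KO, a difference that a change of scaling leaves nearly the same by construction. Counts of 2-fold falls depended on the pseudocount: limma on log2(FPKM + 1), where low genes are drawn towards 0 by construction, called 17, 31 and 19 members lower in WT, HZ and KO.

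Among members with at least 100 counts in the higher group and no overlap between WT libraries, the largest fall was that of *Zfp763*. *Zfp763* had 6.28 and 3.54 CPM in unstimulated and 0.37 and 0.302 CPM in stimulated WT libraries, 5.47 and 5.31 against 0.305 and 0.406 CPM in HZ, and 5.81 and 6.74 against 0.575 and 0.556 CPM in KO. Every stimulated library lay below every unstimulated library, and the log2 fold changes were -3.85 ± 0.35 in WT, -3.92 ± 0.34 in HZ and -3.46 ± 0.32 in KO (SE), with an adjusted p of 4.13e-13 in WT. *Zfp39* had 3.44 and 4.09 CPM in unstimulated and 0.438 and 0.47 CPM in stimulated WT libraries, 4.03 and 4.67 against 0.366 and 0.71 CPM in HZ, and 5.17 and 5.38 against 0.359 and 0.278 CPM in KO. Its groups did not overlap either, and the log2 fold changes were -3.04, -3.02 and -4.04 in the same order (adjusted p = 3.48e-10 in WT). *Zfp760* had 8.99 and 11.5 CPM in unstimulated and 1.35 and 1.34 CPM in stimulated WT libraries, 15.3 and 13.9 against 1.19 and 1.18 CPM in HZ, and 9.89 and 9.92 against 1.19 and 1.53 CPM in KO. *Zfp760* fell by 2.93 ± 0.20 on the log2 scale in WT (adjusted p = 2.28e-17), and unstimulated HZ libraries were the highest of the 12.

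The next 5 falls in WT were of like size. *Zfp551* went from 3.59 and 3.57 to 0.37 and 0.739 CPM (-2.68 ± 0.34, SE, adjusted p = 6.69e-09). *Zfp119b* went from 3.14 and 3.89 to 0.606 and 0.537 CPM (-2.61 ± 0.33, adjusted p = 6.60e-09). *Zfp870* went from 4.16 and 3.46 to 0.572 and 0.94 CPM (-2.33 ± 0.31, adjusted p = 1.47e-08). All 5 genes also fell in HZ and KO, by 1.48 to 2.89 on the log2 scale in HZ and by 1.84 to 2.96 in KO. *Zfp472* went from 11.6 and 11.6 to 3.2 and 1.81 CPM (-2.21 ± 0.18, adjusted p = 1.42e-14), and *Zfp267* from 4.53 and 4.06 to 1.11 and 0.806 CPM (-2.16 ± 0.27, adjusted p = 4.63e-09). Each of these 8 calls held with any 1 library left out. Of the windows of *Zfp119b*, 12.1% are shared with other genes.

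By the median of the 3 responses, *Zfp85* and *Zfp273* followed *Zfp763*, at counts too low for a firm size. *Zfp85* had 88 and 88 counts in unstimulated and 3 and 8 counts in stimulated WT libraries, 90 and 101 against 11 and 10 in HZ, and 116 and 67 against 3 and 3 in KO. *Zfp273* had 46 and 43 against 7 and 5 counts in WT, 86 and 48 against 7 and 7 in HZ, and 65 and 44 against 2 and 6 in KO. Their fitted log2 fold changes were -3.78 and -2.67 in WT and depend on the prior count. Both genes share over 10% of their windows with other genes (14.2% and 12.8%). Of the 159 members 13 had under 10 counts in some library.

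**Figure D3:**
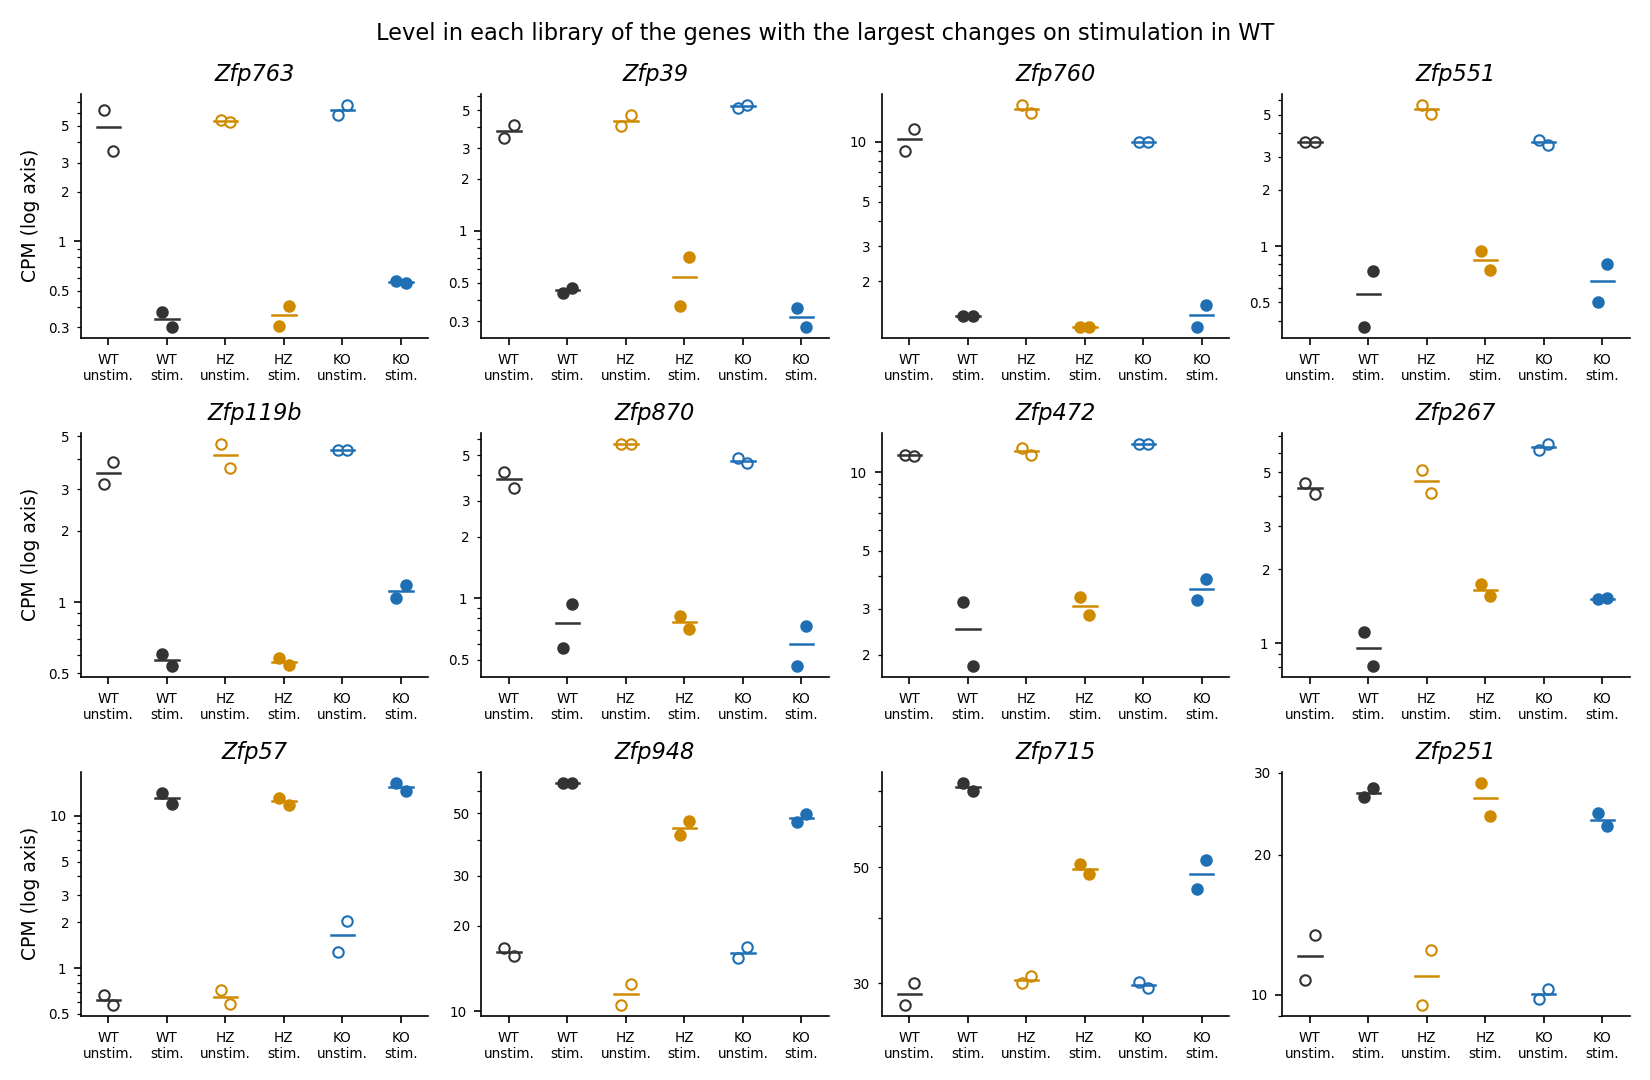
Level (CPM, log axis, a scale of its own in each panel) in each library of the 8 members with the largest falls and the 4 with the largest rises on stimulation in WT, with open points for unstimulated and filled points for stimulated libraries and lines at the means of 2 libraries. In each panel the stimulated points lie all below or all above the unstimulated points.

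The largest rise was that of *Zfp57*, which keeps methylation at imprinted loci. *Zfp57* had 0.664 and 0.572 CPM in unstimulated and 14.2 and 12 CPM in stimulated WT libraries, 0.72 and 0.576 against 13 and 11.9 CPM in HZ, and 1.28 and 2.03 against 16.6 and 14.5 CPM in KO. The groups did not overlap, with log2 fold changes of 4.40 ± 0.23 in WT, 4.25 ± 0.22 in HZ and 3.23 ± 0.19 in KO (SE), and an adjusted p of 5.24e-22 in WT. Unstimulated KO libraries lay above those of WT and HZ. *Zfp948* had 16.7 and 15.7 CPM in unstimulated and 64 and 63.9 CPM in stimulated WT libraries, 10.5 and 12.5 against 42 and 46.7 CPM in HZ, and 15.4 and 16.8 against 46.4 and 49.6 CPM in KO. *Zfp948* rose in all 3 genotypes, to a higher level in WT than in HZ or KO, with log2 fold changes of 1.98, 1.95 and 1.58 (adjusted p = 1.17e-25 in WT). *Zfp715* had 27.3 and 30.1 CPM in unstimulated and 72.5 and 69.8 CPM in stimulated WT libraries, 30 and 30.9 against 50.7 and 48.5 CPM in HZ, and 30.1 and 29.3 against 45.5 and 51.5 CPM in KO. Here the unstimulated libraries were alike and the stimulated WT libraries stood above those of HZ and KO, with log2 fold changes of 1.31 ± 0.07, 0.70 ± 0.07 and 0.71 ± 0.07 (adjusted p = 1.65e-21 in WT).

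*Zfp251* had 10.8 and 13.4 CPM in unstimulated and 26.5 and 27.8 CPM in stimulated WT libraries, 9.5 and 12.5 against 28.5 and 24.3 CPM in HZ, and 9.79 and 10.3 against 24.5 and 23 CPM in KO. *Zfp251* rose by like amounts in the 3 genotypes (1.16, 1.27 and 1.25 on the log2 scale, adjusted p = 3.38e-12 in WT). *Zfp772* had 6.55 and 5.37 against 13.3 and 11.5 CPM in WT, 5.27 and 4.37 against 14.4 and 16.2 CPM in HZ and 5.39 and 5.35 against 18 and 17.7 CPM in KO. Its log2 fold changes were 1.06, 1.66 and 1.73. *Zfp647* passed for a rise in HZ alone (1.75, adjusted p = 0.011) and had 0.403 and 0.273 against 1.19 and 1.12 CPM there. It was named after its values were seen.

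Members with a known role in other tissues did not move as 1 group. *Zfp809*, which silences endogenous retroviruses in mouse embryonic cells, had 12.3 and 13.7 against 14 and 11.4 CPM in WT, overlapping groups, and a log2 fold change of -0.04 ± 0.12 (SE, adjusted p = 0.843). *Zfp568*, which represses a placental *Igf2* transcript, had 14.9 and 16.3 against 11.2 and 12.6 CPM and was lower by adjusted p but not by 2-fold (-0.39 ± 0.12, adjusted p = 0.00569). *Zfp708*, which binds a class of retroelement, fell in WT from 1.45 and 1.34 to 0.572 and 0.336 CPM (-1.61 ± 0.49, adjusted p = 0.00591). In stimulated KO it had 1.29 and 1.7 CPM, with 1.28 and 1.94 CPM in unstimulated KO. All windows of *Zfp708* (100%) also occur in *Gm28557*, so its reads cannot be told from that gene's. *Zfp69*, linked to diabetes in obese mice, fell in WT at the threshold (-1.02 ± 0.38, adjusted p = 0.0246), and the call was lost without unstimulated WT replicate 2 or stimulated WT replicate 2 (adjusted p up to 0.446).

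Promoter windows are shown for some members with large changes, without *Zfp57*, and for 1 member with an ETS motif, since ELK4 is an ETS factor. RefSeq (GRCm38.p6) held windows from 250 bases before to 50 bases after a transcript start for 142 members. The sequences are shown 5′ to 3′ on the strand of the gene. *Zfp763* (chr17:33033332-33033631, minus strand) and *Zfp39* (chr11:58904176-58904475, minus) had the largest falls in WT among members with at least 100 counts in the higher group and no overlap. *Zfp948* (chr17:21566728-21567027, plus) and *Zfp715* (chr7:43313251-43313550, minus) had large rises. *Zfp65* (chr13:67729124-67729423, minus), of the chromosome 13 cluster described with the clusters, holds the ETS motif, shown in capitals.
Zfp763: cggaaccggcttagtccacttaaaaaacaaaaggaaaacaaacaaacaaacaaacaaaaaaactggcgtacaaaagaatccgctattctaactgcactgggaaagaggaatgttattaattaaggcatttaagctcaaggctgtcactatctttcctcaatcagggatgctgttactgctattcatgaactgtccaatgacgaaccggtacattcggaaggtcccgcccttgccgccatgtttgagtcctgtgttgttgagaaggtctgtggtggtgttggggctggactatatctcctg
Zfp39: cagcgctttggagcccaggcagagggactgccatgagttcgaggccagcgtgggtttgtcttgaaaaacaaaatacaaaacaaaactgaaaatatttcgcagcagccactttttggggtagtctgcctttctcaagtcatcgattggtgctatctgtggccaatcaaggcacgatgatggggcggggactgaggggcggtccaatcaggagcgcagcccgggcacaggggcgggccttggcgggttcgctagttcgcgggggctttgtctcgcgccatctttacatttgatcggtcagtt
Zfp948: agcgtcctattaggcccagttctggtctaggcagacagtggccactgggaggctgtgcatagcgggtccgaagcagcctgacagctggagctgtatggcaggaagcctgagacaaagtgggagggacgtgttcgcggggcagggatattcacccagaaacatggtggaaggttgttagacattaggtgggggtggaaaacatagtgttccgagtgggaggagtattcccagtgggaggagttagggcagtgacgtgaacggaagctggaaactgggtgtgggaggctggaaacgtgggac
Zfp715: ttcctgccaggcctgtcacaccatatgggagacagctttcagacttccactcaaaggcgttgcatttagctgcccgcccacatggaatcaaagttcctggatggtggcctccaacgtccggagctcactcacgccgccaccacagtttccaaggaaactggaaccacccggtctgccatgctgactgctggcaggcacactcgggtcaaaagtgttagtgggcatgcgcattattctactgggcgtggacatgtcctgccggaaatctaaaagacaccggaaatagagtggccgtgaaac
Zfp65: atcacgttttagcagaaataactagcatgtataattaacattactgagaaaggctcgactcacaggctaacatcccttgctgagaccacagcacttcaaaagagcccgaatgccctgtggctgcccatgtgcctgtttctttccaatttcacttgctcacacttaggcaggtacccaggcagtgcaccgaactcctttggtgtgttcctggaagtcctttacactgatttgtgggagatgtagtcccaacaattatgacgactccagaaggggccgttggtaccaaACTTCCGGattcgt

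The motif searched was CCGGAAGT on both strands, and in *Zfp65* it lies on the strand opposite to the gene. Only exact matches were counted, and a window without one may hold near matches, as that of *Zfp715* does (CCGGAAAT). The windows hold 9, 18, 10, 13 and 8 CpG sites in the order shown, and the median over member windows was 11, against 7 over all windows. *Zfp65* itself had 11.5 and 10.5 against 4.81 and 5.84 CPM in WT (-1.04 ± 0.16, SE, adjusted p = 3.75e-07). The motif was found for 14 of 142 members with a window (9.86%), against 9.33% of the 9828 tested genes with one. It was in 9.52% of member windows and in 3.89% of all 32851 windows of the same length. The median log2 fold change in WT was -0.78 for the 14 members with the motif and -0.96 for those without. A match is a description of letters and not a bound site.

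Translated coding transcripts of GENCODE (vM21, GRCm38) were used to check the label. Of 158 members with a coding transcript, 102 (64.6%) matched a pattern for the core of the KRAB A box, against 14.5% of the other Zfp genes, 5.70% of the other genes of the KEGG entry and 0.0974% of all remaining tested genes. A member without a match may hold a variant box, and *Zfp57* is one of them. Members had a median of 12 C2H2 fingers (2 to 33), and other Zfp genes a median of 7. Members with the pattern had a median log2 fold change in WT of -0.94, with 43 of 102 at least 2-fold lower, and those without -0.83, with 25 of 56. In HZ the medians were -0.98 and -0.82, and in KO the order turned, with -0.78 and -0.82. The 9 other genes of the KEGG entry with the pattern, which carry symbols other than Zfp, had a median of -1.39 in WT, and 8 of them fell at least 2-fold. The 22 other Zfp genes with the pattern had a median of -0.60 in WT, with 6 at least 2-fold lower. The 11 remaining tested genes with the pattern had a median of -0.04 in WT, with 1 at least 2-fold lower.

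Features of the transcripts followed the fall loosely. Spearman's rho with the log2 fold change in WT over 158 members was -0.20 for the number of fingers, 0.22 for GC content, 0.37 for the mean count and -0.19 for the share of windows found in other genes. In HZ these were -0.19, 0.22, 0.24 and -0.12, and in KO -0.09, 0.14, 0.27 and -0.15. These are descriptions over genes that share libraries. The 53 members with the lowest mean counts had a median log2 fold change of -1.18 in WT, with 32 at least 2-fold lower, and the 53 with the highest had -0.50, with 12. The mean count is taken over all 12 libraries, stimulated ones included, so a fall itself lowers it. Part of its relation to the fall is therefore built in. For GC content the 53 lowest had -1.16, with 32, and the 53 highest -0.66, with 15. In the GENCODE transcripts 87 members share no 75-base window with another gene, and 28, 37 and 31 of them fell at least 2-fold in WT, HZ and KO, with medians of -0.68, -0.79 and -0.63, nearer to 0 than the medians of all members. How the reads themselves aligned was not tested. Another 30 members share over 10% of their windows, and counts of these are uncertain where reads of near copies were split. Among them are *Zfp729b* (40.1%), *Zfp963* (39.1%), *Zfp808* (26.7%), *Zfp747* (21.4%), *Zfp7* (14.0%) and *Zfp874a* (10.4%), which are named in the genotype comparisons or interactions.

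Most members lie in clusters, defined here as at least 3 members with at most 10 protein-coding genes between neighbours. There were 20 clusters with 117 members, and 42 members lay outside. In WT 56 of the 117 fell at least 2-fold (median -0.98), against 13 of the 42 outside (median -0.66). In HZ these were 59 and 17, in KO 50 and 13. The median was below 0 in all 3 genotypes for 18 of the 20 clusters. The largest, on chromosome 13 from *Zfp712* to *Zfp273*, has 17 members, of which 16, 14 and 12 fell at least 2-fold in WT, HZ and KO, with medians of -1.57, -1.92 and -1.53. By adjusted p alone all 17 were lower in WT. A cluster of 9 members on chromosome 17, from *Zfp871* to *Zfp101*, had medians of -1.67, -1.96 and -1.30. It holds *Zfp763*, *Zfp870* and *Zfp472*.

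Rising members sat beside falling ones. A second cluster on chromosome 17, from *Zfp160* to *Zfp40*, has 13 members with medians of -1.17, -1.14 and -0.82 and a range in WT from -2.93 (*Zfp760*) to 1.98 (*Zfp948*). On chromosome 7 *Zfp715* rose in a cluster of 4 whose other members, *Zfp788*, *Zfp141* and *Zfp975*, were lower in WT by adjusted p. Both clusters with a median above 0 in all 3 genotypes have 3 members. On chromosome 7 *Zfp954* and *Zfp772* had rises by adjusted p in all 3 genotypes while *Zfp418* had log2 fold changes of -1.18, -1.26 and -0.40. On chromosome 15 *Zfp251* rose, and *Zfp7* and *Zfp647* had -0.27 and 1.00 in WT, neither past the test. *Zfp788*, *Zfp141* and *Zfp418* were named after their values were seen.

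**Figure D4:**
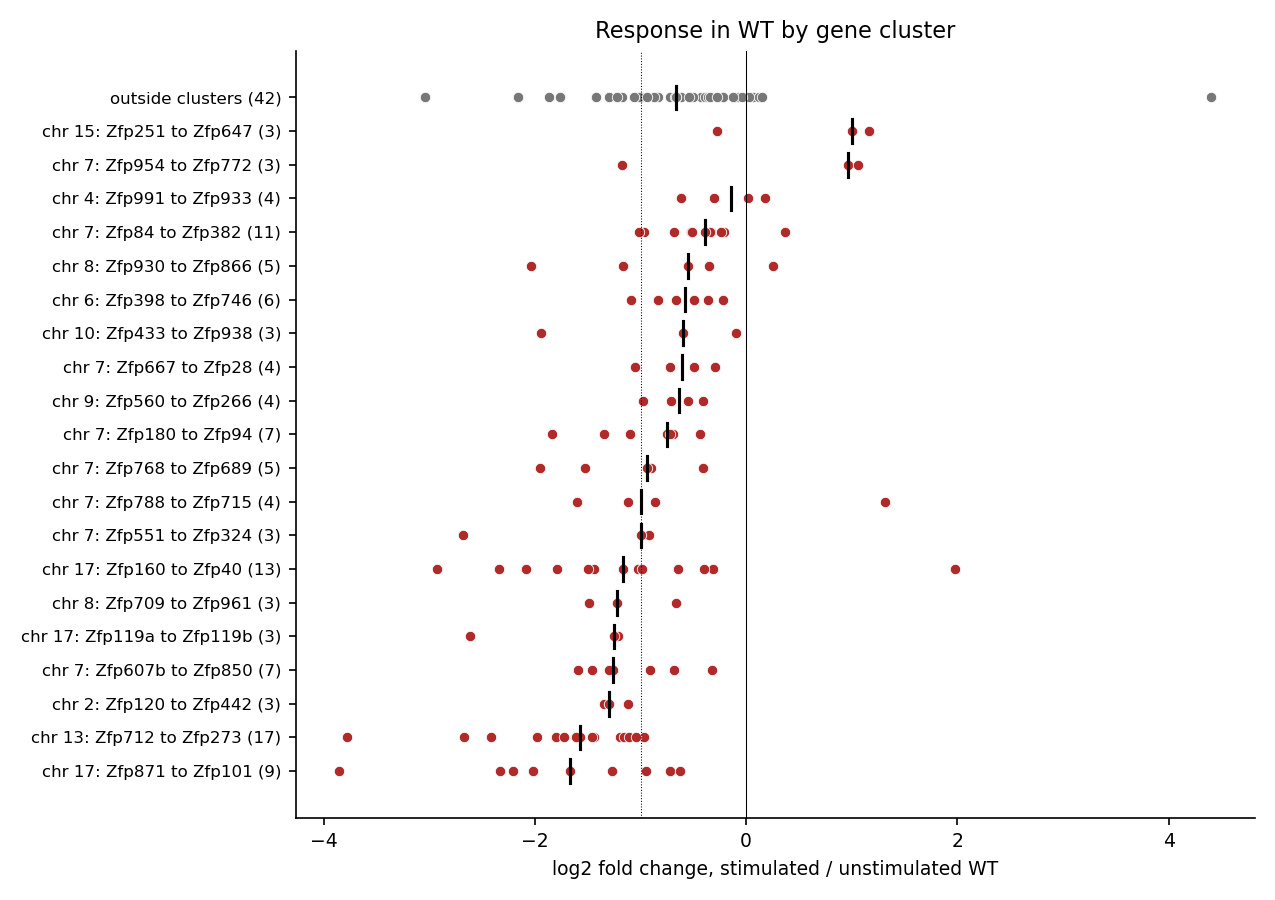
Log2 fold change on stimulation in WT of the members of each of 20 clusters and of the 42 members outside clusters, ordered by the cluster median, with a point per gene, black bars at medians and a dotted line at a 2-fold fall. Medians run from -1.67 to 1.00, and both clusters with a median above 0 have 3 members.

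The genotype comparisons ask what the *Elk4* labels changed in the members at rest. The KO and HZ comparisons share the WT libraries. In unstimulated KO against WT no member was at least 2-fold lower (4.87% of all genes were), while 17 were lower at an unadjusted p below 0.05 and DESeq2 also called 0. At least 2-fold higher were *Zfp57* and *Zfp941*, 2 members against 2.64% of all genes. By adjusted p alone 12 were lower and 14 higher, against 21.7% and 22.9% of all genes. The median difference was 0.05, against 0.02 over all genes. *Zfp57* had a difference of 1.41 ± 0.29 (SE, log2, adjusted p = 5.98e-05). *Zfp941* had 0.754 and 1.34 CPM in WT and 2.48 and 3.38 CPM in KO, without overlap (1.47 ± 0.38, adjusted p = 0.00121). *Zfp747* had 5.98 and 5.34 against 9.33 and 8.57 CPM (0.66 ± 0.17, adjusted p = 0.00108). These 3 genes were higher in both KO libraries than in both WT libraries, which was a condition of naming *Zfp941* and *Zfp747* here. Of the windows of *Zfp747*, 21.4% are shared with other genes.

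Of the 8 members named for unstimulated KO against WT, *Zfp941* and *Zfp747* were called in each fit with 1 library left out. Leaving out unstimulated WT replicate 1 or unstimulated KO replicate 1 brought the count of members at least 2-fold lower from 0 to 1. *Zfp111* had 1.78 and 2.11 CPM in WT and 4.56 and 2.9 CPM in KO (0.94, adjusted p = 0.00983), and lost its call without unstimulated WT or KO replicate 1 (adjusted p up to 0.248). *Zfp982* had 1.81 and 2.09 against 3.39 and 3.35 CPM (0.79, adjusted p = 0.0258) and lost it without any 1 of these 4 libraries (up to 0.130). The lower members were *Zfp69* (2.63 and 3.63 against 2.11 and 1.3 CPM), *Zfp709* (7.48 and 9.72 against 5.04 and 5.92 CPM), *Zfp101* (7.48 and 8.17 against 4.8 and 5.83 CPM) and *Zfp874a* (7.76 and 8.43 against 5.28 and 6.03 CPM). Their differences were -0.88, -0.65, -0.56 and -0.52 on the log2 scale, with adjusted p of 0.048, 0.00535, 0.0129 and 0.02. Each lost its call without unstimulated WT replicate 2, *Zfp69* also without KO replicate 2, and the other 3 also without KO replicate 1 (adjusted p 0.148 to 0.348 at most).

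Unstimulated HZ cells had higher levels of many members. By adjusted p alone 55 members (34.6%) were higher and 9 (5.66%) lower than in WT, against 25.4% and 26.0% of all genes. The median difference was 0.26 against 0.00 for all genes. Of the 55, 47 were also lower on stimulation in WT by adjusted p, as were 117 of all 159 members. That comparison shares the unstimulated WT libraries. The differences were mostly small: *Zfp128*, *Zfp189* and *Zfp949* were at least 2-fold higher and *Zfp69* lower, 3 and 1 members against 3.83% and 5.32% of all genes. With library totals in place of TMM the counts were 44 higher and 10 lower, and 1 member was at least 2-fold higher. The share over all genes was not counted under that scaling, so these counts have no background beside them. The medians there were 0.22 for members and -0.05 for all genes. Without unstimulated HZ replicate 1 the members at least 2-fold higher became 1, and without either unstimulated HZ library those lower became 2. By limma on log2(FPKM + 0.1) no member passed in either direction. In the same libraries the 7 immediate-early genes were all lower than in WT, with a summed level of 510 to 516 CPM against 1786 to 1832 CPM. *Itga2b*, listed as a megakaryocyte marker, had 2413 and 2420.4 CPM against 1739 and 1695 CPM, while *Pf4* and *Gp9* of the same list lay under 1 CPM in these 4 libraries. In unstimulated KO the immediate-early genes summed to 855 to 879 CPM. Their part in the members' difference was not tested.

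*Zfp189* had 2.26 and 1.89 CPM in unstimulated WT and 3.86 and 4.61 CPM in HZ (1.03 ± 0.26, SE, adjusted p = 0.000924). *Zfp949* had 7.97 and 6.8 against 15.8 and 13.9 CPM (1.01 ± 0.16, adjusted p = 8.01e-07). *Zfp975* had 2.17 and 2.34 against 5.35 and 3.4 CPM (0.95, adjusted p = 0.0098). These genes were named on condition that the groups did not overlap. *Zfp975* lost its call without unstimulated WT or HZ replicate 1 (log2 differences of 0.59 to 1.24 with 1 library left out). Of its windows, 24.2% are shared. *Zfp69* had 2.63 and 3.63 CPM in WT and 0.835 and 0.94 CPM in HZ (-1.82 ± 0.40, adjusted p = 0.000135). *Zfp808* had 8.69 and 9.12 against 4.46 and 5.31 CPM (-0.87 ± 0.16, adjusted p = 1.24e-05), and *Zfp9* 7.85 and 7.29 against 6.22 and 3.55 CPM (-0.63, adjusted p = 0.0059). Non-overlap was a condition of naming these 3 as well. Of the windows of *Zfp808*, 26.7% are shared with other genes. *Zfp9* lost its call without unstimulated HZ replicate 2 (adjusted p = 0.29). *Zfp128*, named after its values were seen, had 1.27 and 1.03 against 3.08 and 2.06 CPM (1.16).

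After stimulation few members differed between genotypes. Stimulated KO against WT gave 1 member at least 2-fold lower, *Zfp709*, and 2 higher, *Zfp708* and *Zfp963*, against 4.71% and 3.05% of all genes. By adjusted p alone these were 8 and 19, against 19.2% and 21.2%. In stimulated HZ no member was at least 2-fold lower (2.55% of all genes were, with 11 members at an unadjusted p below 0.05, and DESeq2 called 0). *Zfp111*, *Zfp157* and *Zfp941* were higher, 3 members against 1.96%. By adjusted p alone 6 were lower and 14 higher, against 16.5% and 18.4%. The median differences were 0.13 in KO and 0.10 in HZ, against 0.02 over all genes in both. The 3 rises in HZ became 1 without stimulated WT replicate 1 or stimulated HZ replicate 1. The 2 rises in KO became 4 without stimulated WT or KO replicate 1, and the fall became 2 without stimulated WT replicate 2 or KO replicate 1. Without stimulated HZ replicate 1, 3 members were at least 2-fold lower in HZ, and without stimulated WT replicate 2, 1 was. *Zfp709* had 3.84 and 2.32 CPM in stimulated WT, 0.755 and 1.18 CPM in KO (-1.66 ± 0.28, SE, adjusted p = 3.58e-06) and 1.74 and 1.52 CPM in HZ (-0.91, adjusted p = 0.00377). Both labels lay below WT.

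*Zfp607a* had 2.42 and 1.91 CPM in stimulated WT and 4.67 and 4 CPM in KO, just under a 2-fold difference (1.00 ± 0.23, SE, adjusted p = 0.000473). *Zfp677* had 2.63 and 2.25 CPM in WT, 3.67 and 5.98 CPM in KO (0.99, adjusted p = 0.000152) and 4.75 and 3.89 CPM in HZ (0.83, adjusted p = 0.00164). *Zfp420* had 5.79 and 5.61 against 10.1 and 7.92 CPM in KO (0.66, adjusted p = 0.000856). Non-overlap with WT was a condition of naming all 3. The KO calls of *Zfp677* and *Zfp420* were lost without stimulated KO replicate 2 and replicate 1. With 1 library left out their log2 differences were as low as 0.59 and 0.48. *Zfp53* and *Zfp7* were higher in stimulated HZ, *Zfp53* with 3.7 and 3.06 against 4.78 and 5.28 CPM and *Zfp7* with 2.83 and 2.72 against 4.54 and 4.53 CPM (adjusted p = 0.00828 and 0.013). The call of *Zfp53* was lost without stimulated WT or HZ replicate 2, and that of *Zfp7* without either stimulated WT library or HZ replicate 1.

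On the lower side, *Zfp715* had 72.5 and 69.8 CPM in stimulated WT against 45.5 and 51.5 CPM in KO (-0.55 ± 0.07, SE, adjusted p = 1.92e-09) and 50.7 and 48.5 CPM in HZ (-0.52 ± 0.07, adjusted p = 9.77e-09). *Zfp948* was lower in stimulated HZ (-0.53 ± 0.08, adjusted p = 1.18e-07). *Zfp874a* had 2.93 and 4.13 CPM in WT, 2.8 and 1.91 CPM in KO and 2.47 and 1.79 CPM in HZ (adjusted p = 0.0385 and 0.0118), and *Zfp958* had 2.79 and 4.13 against 2.73 and 1.95 CPM in KO (adjusted p = 0.0478). Both lost these calls without stimulated WT replicate 2 or replicate 2 of the other label. *Zfp715* and *Zfp948* kept theirs with any 1 library left out. *Zfp963* and *Zfp157*, named after their values were seen, had 0.808 and 0.671 against 1.62 and 1.95 CPM in KO and 0.707 and 1.28 against 1.8 and 2.57 CPM in HZ.

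Interactions ask whether the response to stimulation differed from that in WT. The KO and HZ interactions share the 4 WT libraries. In KO 3 members (1.89%) had a more negative response, *Zfp57*, *Zfp715* and *Zfp948*, against 3.83% of all genes, and 7 (4.40%) a more positive one, against 5.44%. These 3 members rose in WT. Of the 7 with a positive interaction, 6 had a log2 fold change below 0 on stimulation in WT, as had 144 of all 159 members. *Zfp715* differed by -0.60 ± 0.10 on the log2 scale (SE, adjusted p = 1.26e-05), the smallest p of the members. *Zfp57* differed by -1.17 ± 0.33 (adjusted p = 0.015) and *Zfp948* by -0.40 ± 0.12 (adjusted p = 0.0195). *Zfp182* fell in WT, from 24.3 and 24.4 to 19.1 and 18 CPM, and had 21.7 and 22.9 against 26.1 and 24.5 CPM in KO, a difference in response of 0.57 ± 0.12 (adjusted p = 0.00116). *Zfp871* fell in both, from 147 and 166 to 98.8 and 90.8 CPM in WT and from 150.4 and 143 to 108 and 105 CPM in KO (0.27 ± 0.07, adjusted p = 0.00713). *Zfp950* and *Zfp772* differed by 0.31 and 0.67 (adjusted p = 0.0217 and 0.0234), and *Zfp729b* by -0.58, which did not pass (adjusted p = 0.0517).

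Of these KO interactions, those of *Zfp715* and *Zfp182* held with any 1 of the 8 libraries left out. *Zfp57* lost it without unstimulated WT replicate 2, stimulated WT replicate 1 or unstimulated KO replicate 2 (adjusted p up to 0.235). *Zfp948* lost it in 5 of 8 fits, *Zfp871* in 3, *Zfp950* in 4 and *Zfp772* in 6. The 7 positive members became 2 without unstimulated WT replicate 2, 1 without stimulated WT replicate 2, 2 without unstimulated KO replicate 1 and 3 without unstimulated KO replicate 2. The 3 negative members became 1 without unstimulated KO replicate 2 and 5 without stimulated KO replicate 2.

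In HZ 26 members had a more negative and 6 a more positive response than in WT, against 18.6% and 19.9% of all genes. These are 16.4% and 3.77% of the members, at or below the shares over all genes. Of the 26, 24 had a log2 fold change below 0 on stimulation in WT, as had 144 of all 159 members. With library totals the split was 17 and 10. The median over members was -0.10, against 0.01 over all genes. As given above, unstimulated HZ libraries, which enter this difference, had higher levels of many members. *Zfp715* had the smallest p (-0.61 ± 0.10, SE, adjusted p = 1.54e-06), a smaller rise than in WT. *Zfp871* fell from 193 and 187 to 92.5 and 86.6 CPM in HZ (-0.36 ± 0.07, adjusted p = 2.93e-05), so that its response was more negative than in WT in HZ and less negative in KO. *Zfp808* had 4.46 and 5.31 against 8.04 and 8.05 CPM in HZ and 8.69 and 9.12 against 6.4 and 8.86 CPM in WT (0.94 ± 0.23, adjusted p = 0.000703). *Zfp69* had 0.835 and 0.94 against 1.71 and 1.42 CPM in HZ and 2.63 and 3.63 against 2.32 and 0.772 CPM in WT (1.83 ± 0.56, adjusted p = 0.00753). It lost the call without replicate 2 of unstimulated or stimulated WT (adjusted p up to 0.0802), while *Zfp715*, *Zfp871* and *Zfp808* kept theirs. Without unstimulated or stimulated HZ replicate 2, the 6 positive members became 2 and 3.

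The 3 members whose responses differed most between genotypes were *Zfp69*, *Zfp607a* and *Zfp14*. *Zfp69* had log2 fold changes of -1.02, 0.82 and -0.86 in WT, HZ and KO. *Zfp607a* had -1.26 ± 0.23, -2.08 ± 0.22 and -0.26 ± 0.21 (SE), with interactions of -0.82 in HZ (adjusted p = 0.0378) and 0.99 in KO (adjusted p = 0.0308). *Zfp14*, at 0.724 and 1.03 CPM in unstimulated WT, had -0.21, -1.75 and 0.07, and its fall in HZ was lost without either replicate 2 of HZ (adjusted p up to 0.0802). Neither of its interactions passed (adjusted p = 0.108 and 0.881).

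**Figure D5:**
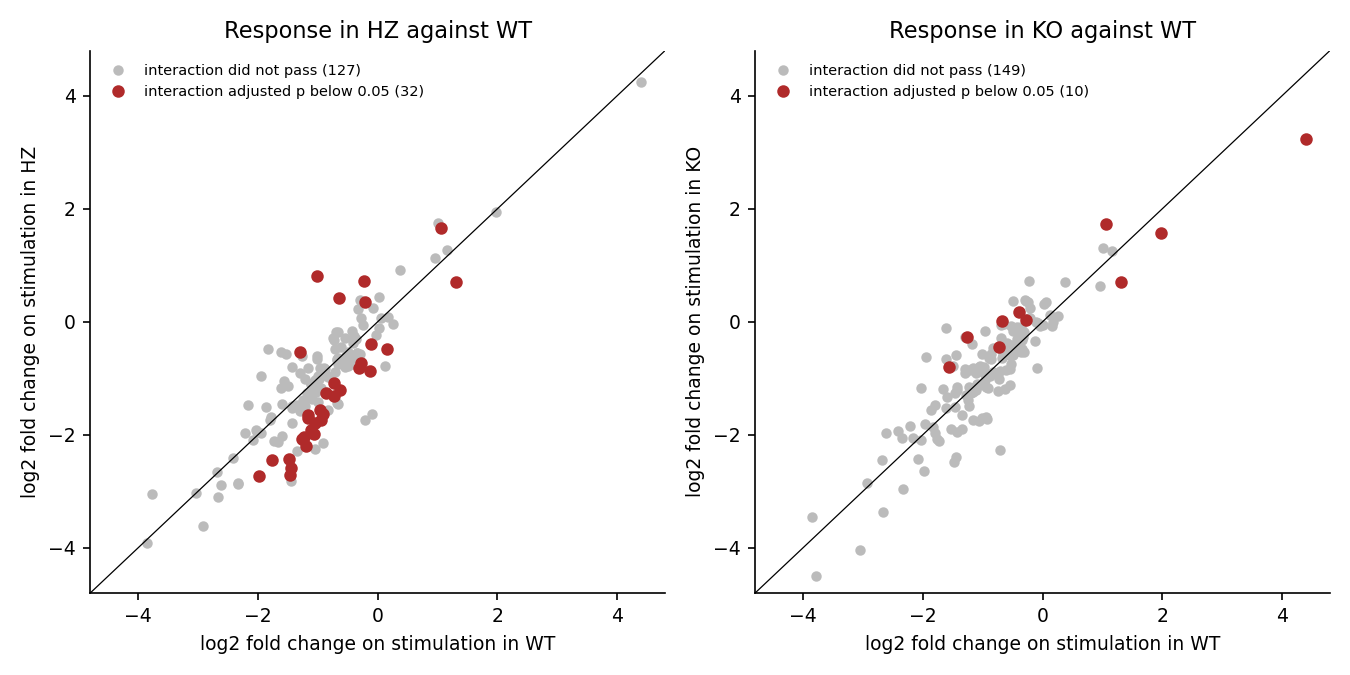
Log2 fold change on stimulation of the 159 members in HZ (left) and KO (right) against that in WT. Each point is a gene, the line marks equal responses, and red points passed the interaction test (adjusted p below 0.05): 32 members in HZ and 10 in KO.

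The partners of KRAB proteins moved in both directions. Of 22 genes listed for the TRIM28 complex and its chromatin partners 21 were in the table, and their summed level was 2472 to 2507 CPM in unstimulated and 2388 to 2396 CPM in stimulated WT libraries. In WT 9 of the 21 were lower and 3 higher by adjusted p, in HZ 6 and 10, and in KO 6 and 4, with medians of -0.12, 0.19 and -0.07 on the log2 scale. *Trim28*, the co-repressor itself, had 194 and 187 CPM in unstimulated and 195 and 200.1 CPM in stimulated WT (log2 fold change 0.05, adjusted p = 0.296). In HZ it rose from 149 and 153 to 213 and 215 CPM (0.50, adjusted p = 1.28e-16) and was lower than WT when unstimulated (-0.34, adjusted p = 6.35e-11), and in KO its log2 fold change was -0.02 (adjusted p = 0.778). In WT *Setdb1* had 48.9 and 47.5 against 43.4 and 42.6 CPM (-0.16, adjusted p = 0.0337). In unstimulated HZ 14 partners were lower and 2 higher than in WT by adjusted p, against 26.0% and 25.4% of all genes. In unstimulated KO 10 were lower and 2 higher, against 21.7% and 22.9%. The median differences were -0.25 in HZ and -0.18 in KO. A link to the members' levels was not tested. Of 5 cofactors of imprinting and retroelement silencing 4 were in the table. In WT 3 were lower, with *Zbtb24* going from 14.1 and 15.8 to 6.03 and 6.82 CPM (-1.22, adjusted p = 8.82e-10), in HZ 2 were lower and 1 higher, and in KO 1 was lower.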

How the data were processed

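RNA was sequenced from 12 libraries of BMMCs in 6 groups (*Elk4* WT, HZ and KO, unstimulated and stimulated) of 2 libraries each, on Illumina HiSeq. The authors deposited raw read counts per gene, made with fastp, HISAT2 and HTSeq on GRCm39 per the submitters' processing notes (versions not given in the sources used here). The authors deposited FPKM values per gene as a second table. Whether counting used strand is not given in the sources used here, so overlapping and antisense genes cannot be told apart. Counts were tested in R 4.3.3 with edgeR 4.0.16 (TMM scaling, genes filtered by group with default settings, quasi-likelihood test, 1 fit over all 12 libraries with 6 residual degrees of freedom), and p-values were adjusted by Benjamini-Hochberg over the 12208 of 16234 genes tested. The biological coefficient of variation was 4.01%. A gene was called at an adjusted p below 0.05 with a change of 2-fold or more in either direction (1 on the log2 scale). An interaction was called at an adjusted p below 0.05. For single named genes, a call kept or lost under another setting refers to the adjusted p and direction alone, without the fold threshold. CPM values use the TMM-scaled library sizes. FPKM values were used for levels between genes and in limma 3.58.1, and DESeq2 1.42.0 was an alternative. The steps were tested on simulated counts with known changes.

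Members and gene lists were chosen with earlier results of these data known. Genes were named by rule: the 8 largest falls and 4 largest rises in WT among called members whose libraries did not overlap and whose higher group had a mean of at least 100 counts, the 3 or 4 largest in each direction of each genotype comparison, the smallest interaction p-values, the highest FPKM, the most negative median response, the widest range of responses and members with a known role. Transcript annotation came from GENCODE vM21 (GRCm38), matched by symbol, older symbol or synonym for all 159 members. Promoters, chromosomes and gene order came from RefSeq (GRCm38.p6), matched by NCBI gene number. No coordinates of the files' build were used. Total counts of 29697958 to 35531667 per library limit precision for members of few counts.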

Additional observations from a re-analysis of the deposited data

Results flagged for a closer look

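The response to stimulation differed between genotypes by the test of the interaction (edgeR's quasi-likelihood test, adjusted over all genes) for 3 members with a more negative and 7 with a more positive response in KO than in WT, and for 26 and 6 members in HZ. These are 1.89%, 4.40%, 16.4% and 3.77% of the members, against 3.83%, 5.44%, 18.6% and 19.9% of all genes tested. Both comparisons use the same 4 WT libraries. In KO the response of *Zfp715*, which rose in all genotypes, was lower by -0.60 on the log2 scale (adjusted p = 1.26e-05), and in HZ by -0.61 (adjusted p = 1.54e-06). *Zfp57*, which keeps imprints, differed by -1.17 in KO (adjusted p = 0.015), and *Zfp948* by -0.40 (adjusted p = 0.0195). The response was higher in KO for *Zfp182* by 0.57 (adjusted p = 0.00116), *Zfp871* by 0.27 (adjusted p = 0.00713), *Zfp950* by 0.31 (adjusted p = 0.0217) and *Zfp772* by 0.67 (adjusted p = 0.0234). In HZ *Zfp871* differed by -0.36 (adjusted p = 2.93e-05), opposite in sign to KO, *Zfp808* by 0.94 (adjusted p = 0.000703) and *Zfp69* by 1.83 (adjusted p = 0.00753). The responses in HZ and KO were not tested against each other.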

How the results depend on the processing

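The counts of members that fell on stimulation (69 in WT, 76 in HZ and 63 in KO) moved by over 1.5 times under 3 kinds of setting. Without a fold threshold they were 117, 120 and 100. Among members with a mean count of at least 100 they were 41, 50 and 40, where fewer members could be called. By limma on log2(FPKM + 1) they were 17, 31 and 19, with and without a filter on FPKM. No other alternative moved them past this limit, and with each library left out in turn they ranged over 65 to 70, 72 to 74 and 55 to 61. For every other move listed here the cause was not tested.

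Rises on stimulation became 3 in WT with library totals, 2 in WT by limma with a pseudocount of 0.1, 2 in WT and 3 in HZ with a pseudocount of 1, with and without a filter, 7 in KO at a 1.5-fold threshold, and 11 in HZ and 9 in KO without a fold threshold. They ranged over 4 to 5 in WT, 5 to 6 in HZ and 4 to 5 in KO with a library left out.

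Genotype differences were few and moved most. At a 1.5-fold threshold 2 members were lower and 5 higher in unstimulated KO, 3 and 14 in unstimulated HZ, 2 and 8 in stimulated KO, and 2 and 8 in stimulated HZ. Without a fold threshold these were 12 and 14, 9 and 55, 8 and 19, and 6 and 14. Unstimulated HZ gave 10 lower and 44 higher with library totals and no fold threshold, a setting chosen after seeing the data, and 1 higher with library totals alone. The members higher in stimulated HZ became 1 with DESeq2, with DESeq2's size factors in edgeR, with only the groups compared and at an adjusted p below 0.01, and without a filter on low counts 1 was lower there. By limma with a pseudocount of 0.1, 0 were higher in unstimulated KO, 0 lower and 0 higher in unstimulated HZ, 1 higher in stimulated KO and 0 higher in stimulated HZ. With a pseudocount of 1, with and without a filter, 0 were higher in unstimulated KO, 0 and 0 passed in unstimulated HZ, 0 and 0 in stimulated KO, and 0 were higher in stimulated HZ. Among members with a mean count of at least 100, 1 was higher in unstimulated KO, 0 lower and 1 higher in unstimulated HZ, 0 higher in stimulated KO and 1 higher in stimulated HZ. With a library left out the lower and higher counts ranged over 0 to 1 and 2 to 3 in unstimulated KO, 1 to 2 and 1 to 3 in unstimulated HZ, 1 to 2 and 3 to 4 in stimulated KO, and 0 to 3 and 1 to 3 in stimulated HZ.

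Of the interactions, 1 negative and 2 positive members in KO and 13 and 3 in HZ passed at an adjusted p below 0.01. With a log2 difference of at least 1 these were 1 and 0, and 2 and 2. Library totals gave 17 and 10 in HZ. By limma they were 1 and 2 in KO with 15 negative in HZ (pseudocount 0.1), 1 and 3 in KO (pseudocount 1), and 1 and 2 in KO with 10 positive in HZ (pseudocount 1, no filter). With a library left out they ranged over 1 to 5 and 1 to 7 in KO, and 18 to 22 and 2 to 7 in HZ.

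Whether the replicate numbers pair the libraries could not be settled. Deviations of same-numbered unstimulated and stimulated libraries correlated at -0.03 in WT, 0.07 in HZ and -0.01 in KO over 9858 genes. Over all pairs of groups the range was -0.05 to 0.07. A correlation near 0 cannot exclude pairing, since a small shared effect may lie under the noise. With the replicate block 69, 76 and 63 members fell in WT, HZ and KO, and the interactions in HZ were 26 and 7. Values of single named genes kept their direction and call in 858 cases and lost the call in 98, with 0 reversed. With 2 libraries a group, members of few counts limit what can be seen.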
